A study of Homo sapiens with 6 samples.

Results

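The 7 genes of the urea cycle (NAGS, CPS1, OTC, SLC25A15, ASS1, ASL and ARG1) were taken from the 20033 protein-coding genes of GENCODE release 44 by their known function, with earlier results of these data known. The data were 1 list of 31569 regions bound by the UHRF1 tandem Tudor domain (TTD) in untreated HepG2 cells, an established liver cancer line derived from a hepatoblastoma. They came from CIDOP-seq, a pulldown in which a GST-tagged reading domain stands in for the antibody of a ChIP. The series held 3 groups of 2 libraries, namely TTD CIDOP, H3K9me2 ChIP and input, all from native mononucleosomes that MNase released from the same untreated line. Both TTD libraries were pooled by the authors before peaks were called, so the values below have no error between replicates, and neither their depth nor the strength of a peak can be read from the list. A gene without a peak is therefore a gene without a region past the cutoffs of the authors, and is not shown to be unbound. Peaks are given as positions on hg38, and cover stands for the share of a window taken up by peaks, in percent.

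The urea cycle turns ammonia into urea, and the periportal hepatocytes of the liver are its main site. NAGS makes N-acetylglutamate, which switches on CPS1, and CPS1 and OTC carry out the mitochondrial steps up to citrulline. SLC25A15 brings ornithine into the mitochondria, and ASS1, ASL and ARG1 complete the cycle in the cytosol. HepG2 cells are known to run this cycle incompletely. The TTD of UHRF1 reads histone H3 methylated at K9, a mark best known from silenced chromatin. The paper reports stronger TTD binding where the H3 tail also carries K4me1, a mark of enhancers. It places most TTD peaks on HepG2 enhancers. Neither mark was looked up at the peaks below. The binding of the TTD was measured here in place of that of the whole protein.

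TTD peaks lay within 100 kb of the 5′ end of all 7 genes, but the genes differed in where the peaks lay. Among protein-coding genes, 77.9% had such a peak. A peak lay in the body of 3 of the 7, CPS1, ASS1 and ARG1, beside 34.2% of protein-coding genes. None of the 7 had a peak within 2.5 kb of the 5′ end of the gene, which held for 16.9% of protein-coding genes, and none had that end inside a peak, which held for 2.94%.

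This picture changed for CPS1 and ARG1 with the choice of transcription start site (TSS). GENCODE sets the 5′ end of a gene at its most upstream transcript, which for CPS1 lies 78917 bp and for ARG1 102394 bp before the TSS of the MANE Select transcript, the reference transcript of the gene. In the other 5 genes both starts lay at most 199 bp apart. A shift of over 10 kb was found in 1739 protein-coding genes (8.68%). With the MANE Select TSS, CPS1 and ARG1 both had it inside a peak, which makes 2 of 7 members (28.6%) beside 2.19% of protein-coding genes. The same 2 members had a peak within 2.5 kb of it, beside 16.9%. Counts of members with a peak in the transcript body (3 of 7, beside 30.6%) and within 100 kb (7 of 7, beside 77.9%) were as before. Over all 27 TSSs of protein-coding transcripts of the 7 genes, 4 lay inside a peak, 1 of the 4 of CPS1 and 3 of the 4 of ARG1. Those of ARG1 lie a few bases apart in the same peak and amount to 1 start. Counted by gene, 2 of 7 members had at least 1 TSS inside a peak, beside 5.36% of protein-coding genes. A peak within 2.5 kb of any such TSS was found for the same 2 members (28.6%), beside 21.5% of protein-coding genes.

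**Figure D1:**
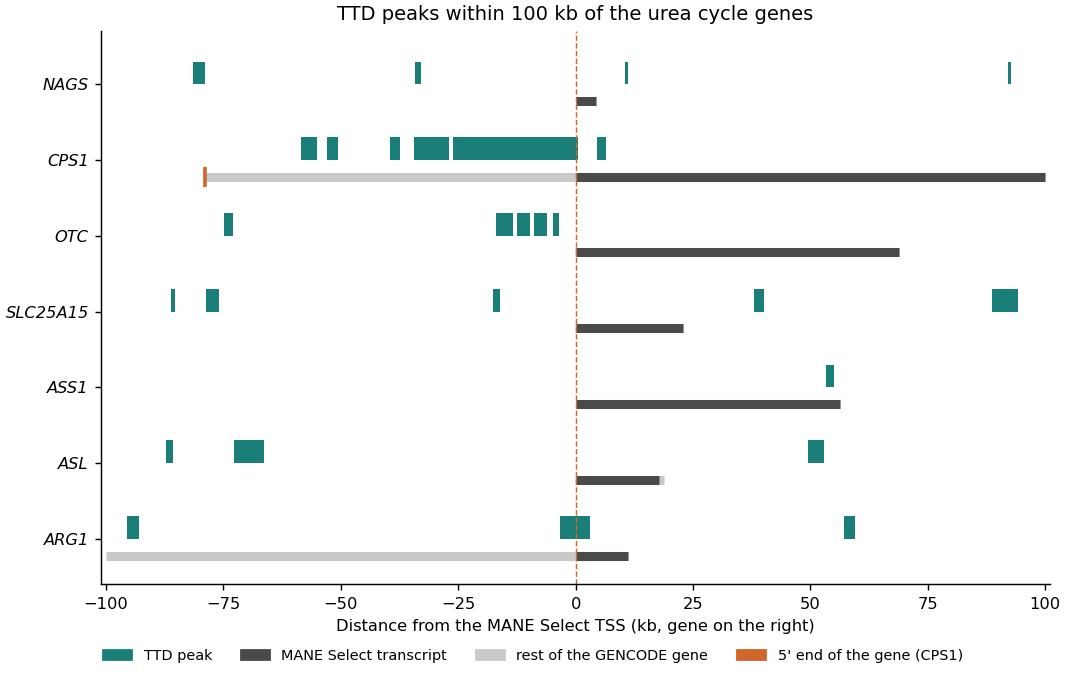
TTD peaks (green) within 100 kb of the MANE Select TSS (dashed line, distance in kb on the x axis) for each urea cycle gene, with the transcript in dark grey and the rest of the GENCODE gene in light grey. The line crosses a peak in CPS1 and ARG1, the body of OTC is free of peaks behind a row of 4 upstream peaks, and the upstream side of ASS1 is empty.

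The bases just before the MANE Select TSS show how unlike these promoters are. The 200 bases upstream of the TSS are given for 3 genes, 5′ to 3′ on the plus strand of hg38 with each CpG in capitals. They were chosen to set a promoter inside a peak (ARG1 at chr6:131573026-131573225) beside an equally CpG-poor one outside peaks (OTC at chrX:38352404-38352603) and a CpG-rich one far from any peak (ASL at chr7:66075619-66075818).
ARG1: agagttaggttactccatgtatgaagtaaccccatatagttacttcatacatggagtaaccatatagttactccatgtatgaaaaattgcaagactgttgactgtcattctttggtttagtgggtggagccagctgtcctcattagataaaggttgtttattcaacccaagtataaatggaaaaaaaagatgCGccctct
OTC: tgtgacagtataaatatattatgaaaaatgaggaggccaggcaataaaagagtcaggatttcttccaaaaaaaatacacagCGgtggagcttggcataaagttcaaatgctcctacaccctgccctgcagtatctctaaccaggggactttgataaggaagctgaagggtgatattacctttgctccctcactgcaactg
ASL: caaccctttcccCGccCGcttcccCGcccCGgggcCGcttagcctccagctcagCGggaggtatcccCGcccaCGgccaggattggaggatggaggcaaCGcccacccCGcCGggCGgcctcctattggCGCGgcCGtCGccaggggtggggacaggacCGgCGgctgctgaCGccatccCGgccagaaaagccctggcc
The stretches of ARG1 and OTC held 1 CpG each, and 9.22% of protein-coding genes held as few. The ASL stretch held 20, those of NAGS, ASS1 and SLC25A15 held 11, 18 and 27, and the median of all genes was 15. GC content ran from 37.5% in ARG1 and 42.5% in OTC to 79.5% in SLC25A15. The 4 CpG-richer stretches lay outside peaks, the ARG1 stretch lay wholly in a peak, and that of OTC lay outside. CPS1, whose TSS also lies in a peak, enters the comparison of CpG ratios over 1 kb.

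CPS1, whose product makes carbamoyl phosphate from ammonia and sets the pace of the cycle, carried the most TTD cover of the 7 over the GENCODE gene and within 100 kb, whereas ARG1 had more over the MANE Select transcript and at its TSS. The gene spans chr2:210477682-210679107, and 8 peaks covered 46870 bp or 23.3% of it, a cover reached by 3.38% of protein-coding genes. Within 100 kb of the MANE Select TSS, 21.9% was covered, which 1.84% of genes reached.

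Most of that cover came from 1 peak at chr2:210530501-210557100. With 26600 bp it ranked 27 of 31569 in width. It began 26098 bp before the MANE Select TSS and ended 501 bp behind it, in intron 1, so that it took in the whole first exon. Genome-wide, 6 canonical TSSs lay inside a peak of at least that width. The 20 kb upstream of the CPS1 TSS were covered to 100%, as in 0.0300% of protein-coding genes, and the 20 kb downstream to 12.2% (this 20 kb window was chosen after the values were seen). The peak lay almost wholly on the upstream side, and that side is at the same time inside the GENCODE gene, whose most upstream transcript starts earlier.

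The other CPS1 peaks were of ordinary width except one. A peak of 7440 bp at chr2:210522221-210529660 ended less than 1 kb before the large one, and 3 peaks of 2120 to 3290 bp lay further upstream within the gene. Together, the part of the gene before the MANE Select TSS was covered to 52.3% by 5 peaks. Behind the TSS, peaks of 1940, 1130 and 2020 bp lay in introns 1, 32 and 34 of a transcript of 38 exons. The MANE Select transcript was covered to 4.56% in all, with 4.53% in exons and 4.57% in introns. In 3 equal parts along it the cover was 5.98%, 0% and 7.71%, so the middle of the transcript was free of peaks. The 5′ end of the gene itself lay 20519 bp from the nearest peak.

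ARG1 encodes liver arginase, which splits arginine into urea and ornithine. Its MANE Select transcript is short (11104 bp, 8 exons), and 1 peak of 6340 bp at chr6:131569971-131576310 lay across its TSS, from 3255 bp before it to 3084 bp behind it. The 5 kb window around this TSS was covered to 100%, as in 50 protein-coding genes (0.250%). In CPS1 the same window was covered to 60.0%, a level that 1.53% of genes reached. The ARG1 peak was much narrower than that of CPS1, at rank 2504 of the list, but lay on both sides of the TSS.

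Behind the TSS the ARG1 peak took in the first exon and ended in intron 1, with 114 bp of exon and 2971 bp of intron. It made up all the cover of the MANE Select transcript, 27.8%, a level reached by 2.62% of genes, and all of it lay in the first of 3 equal parts (83.4% of that part). The peak also overlapped the GENCODE span of MED23, which encodes a Mediator subunit and runs on the other strand, but not its canonical transcript. A list without strand cannot assign the peak to 1 of the genes. Over the whole GENCODE gene, chr6:131470832-131584332, 2 peaks gave a cover of 7.91%. The second of these, 2640 bp wide, lay 6809 bp from the 5′ end of the gene and far from the MANE Select TSS. A peak 57165 bp downstream of the TSS lay in the GENCODE span of ENPP3, which encodes an ectonucleotidase, but upstream of its canonical transcript, and 2149 bp from the TSS of MED23.

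OTC, which joins carbamoyl phosphate to ornithine and is the X-linked gene of the cycle, had no peak in its body (chrX:38352586-38421446) or TSS window. Its peaks stood upstream in a row. The nearest ended 3434 bp before the MANE Select TSS, and 4 peaks of 3560, 2810, 2910 and 1310 bp, listed toward the TSS, lay between positions -16893 and -3434 from it. They covered 53.0% of the 20 kb upstream, as in 1.13% of protein-coding genes, and 0.364% of genes had as many peaks there. Some of these peaks lay under 1 kb apart, so their number depends on where peak calling split them. Downstream of the TSS, 0% of the 20 kb was covered. The whole X chromosome held 335 peaks, or 2.15 per Mb, and 0.533% of it was covered. 1 further peak overlapped the GENCODE span of RPGR, a gene of the photoreceptor cilium, but not its canonical transcript. This peak raised the cover within 100 kb to 6.28%, a level reached by 19.4% of genes.

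A readthrough gene without a symbol, ENSG00000250349, runs through the OTC locus in GENCODE. Peaks there have no strand and cannot be assigned to either gene. With a window of 5 kb on each side, OTC became the 1 member with a peak near the 5′ end of the gene, at a cover of 13.1%, and 22.1% of protein-coding genes had a peak in that window.

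NAGS, the source of the activator of CPS1, is a short gene (4447 bp, chr17:44004622-44009068) without a peak in its body or TSS window. Its nearest peak, 730 bp wide, lay 10509 bp downstream of the TSS and 168 bp from the TSS of TMEM101, a gene for a membrane protein. All 4 peaks within 100 kb lay nearer to the TSS of another gene than to that of NAGS, and they covered 2.61%. This cover was reached by 43.2% of protein-coding genes, close to the middle of the distribution. The peak at TMEM101 had the highest CpG observed/expected ratio of the 30 peaks near the 7 genes (0.54), and that with the lowest (0.06) also lay near NAGS.

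SLC25A15, the ornithine carrier (chr13:40789412-40812460), likewise had no peak in its body or TSS window. Peaks nevertheless stood on both sides, 3 upstream and 2 downstream of the MANE Select TSS. The nearest, 1520 bp wide, lay 16051 bp before that TSS and 851 bp from the TSS of MRPS31, which encodes a mitochondrial ribosomal protein. The widest, 5470 bp, lay near the downstream end of the 100 kb. The cover within 100 kb was 6.40%, which 18.9% of genes reached, although no peak lay close to the gene.

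ASS1, which forms argininosuccinate from citrulline and aspartate, had the least TTD cover of the 7 within 100 kb, although 4 others had none in the gene body. Its 1 peak, 1540 bp at chr9:130498391-130499930, lay near the 3′ end of the gene, 53430 bp from the TSS, over exon 14 and the introns on either side. It covered 2.73% of the gene body (chr9:130444961-130501274), a level that 24.3% of genes reached. No other peak lay within 100 kb of the TSS. The cover there was 0.770%, which 67.6% of genes reached. This gene also had 0 other protein-coding TSSs within 100 kb.

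ASL splits argininosuccinate into arginine and fumarate. No peak lay in its body (chr7:66075800-66094697) or within 49612 bp of its MANE Select TSS, and 3 peaks further out covered 5.53% within 100 kb, a level reached by 22.8% of genes. The downstream peak, 3260 bp wide, lay in CRCP, which encodes a subunit of RNA polymerase III, and covered 8.21% of its canonical transcript. The widest, 6250 bp, lay upstream and nearest to the TSS of GUSB, the gene of the lysosomal beta-glucuronidase. As with NAGS, no peak near ASL was nearer to its own TSS than to another.

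**Figure D2:**
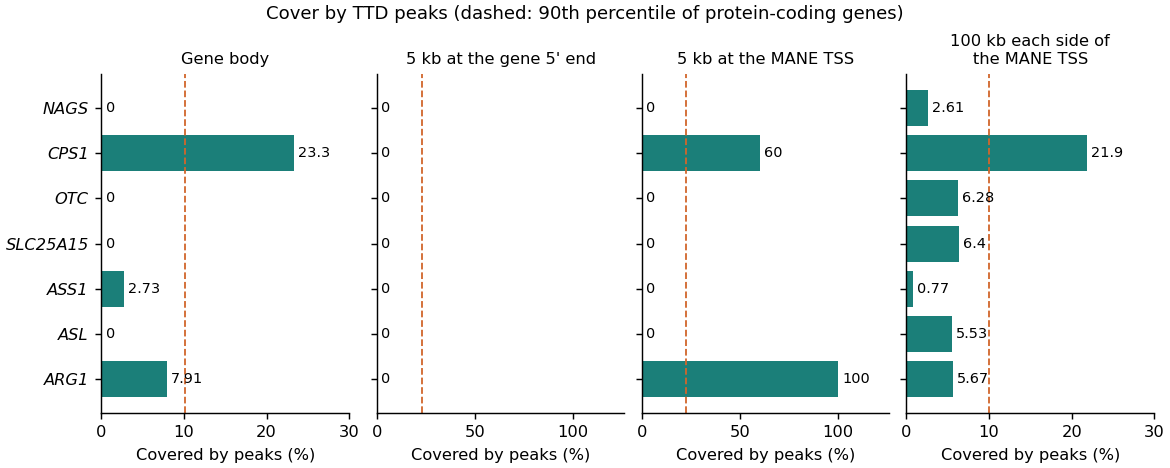
Cover by TTD peaks (percent, x axis) of each urea cycle gene in the gene body, in the 5 kb window at the 5′ end of the gene, in the same window at the MANE Select TSS, and within 100 kb of the MANE Select TSS. Dashed lines mark the 90th percentile of protein-coding genes. The 7 bars at the 5′ end of the gene are 0, whereas at the MANE Select TSS CPS1 stands at 60.0% and ARG1 at 100%.

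Across the 7 genes the median cover within 100 kb of the 5′ end was 5.53% (0.770 to 21.9%), beside a median of 2.00% over all protein-coding genes with an upper quartile of 5.02%. Within 50 kb the medians were 2.64% for the 7 genes and 1.52% for all genes, and within 250 kb they were 4.86% and 2.46%. The number of peaks within 100 kb had a median of 4 (1 to 6), beside 2. In the gene body the median was 0% for the 7 genes and for all genes. Within 100 kb ASS1 was lowest and CPS1 highest, while OTC, SLC25A15 and ASL lay between 5.53 and 6.40%. These 3 were not close in other windows, at 10.6%, 3.67% and 0.370% within 50 kb and 2.96%, 10.3% and 4.86% within 250 kb. The chromosomes also differed, from 0.533% covered on X to 5.67% on chromosome 2, where CPS1 lies, and 5.33% on chromosome 6, where ARG1 lies. Chromosomes 7, 9 and 13, which hold ASL, ASS1 and SLC25A15, were covered to between 1.95% and 2.59%. Chromosome 17 with NAGS stood at 4.08%, and the part of the chromosome in the cover of a gene was not tested.

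The 30 peaks within 100 kb of either start or in the gene had a median width of 2345 bp, beside 2250 bp in the whole list. Of these, 16 were at least as wide as the list median and 14 were narrower. The single peak of ASS1 was narrower, whereas all 4 near ARG1 were at least as wide. By side, 18 lay upstream of the MANE Select TSS, 10 downstream and 2 across it. For 15 of them, the nearest canonical TSS was that of the urea cycle gene itself, 6 at CPS1, 3 at OTC, 3 at ARG1, 2 at SLC25A15 and 1 at ASS1. In base composition they resembled the list, with a median GC content of 41.9% (all peaks 43.2%) and a median CpG observed/expected ratio of 0.20 (all peaks 0.19).

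**Figure D3:**
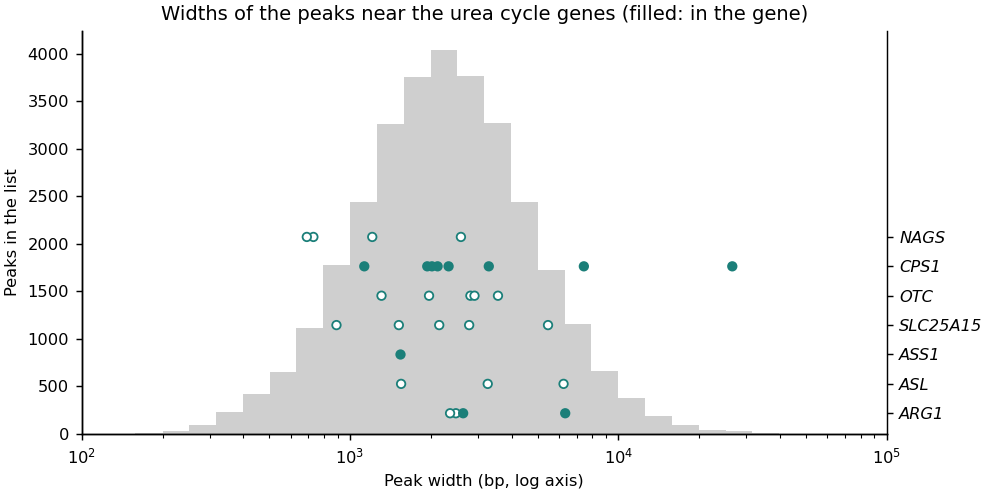
Widths of all TTD peaks (grey histogram, bp on a log axis, number of peaks on the left) and of the 30 peaks near each urea cycle gene (circles, filled where the peak lies in the gene). The CPS1 peak of 26600 bp stands alone on the right, and the other 29 lie between 690 and 7440 bp.

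Of the 14 other protein-coding genes with a canonical TSS within 100 kb of a member, 2 had a peak in the canonical transcript, both next to ASL. These were CRCP and the readthrough gene ENSG00000249319. A peak within 2.5 kb of the TSS was found for 3, TMEM101 next to NAGS (14.6% of the window), MRPS31 next to SLC25A15 (30.4%) and MED23 next to ARG1 (7.04%). None of the 14 had its TSS inside a peak. Over all protein-coding genes these shares were 30.6%, 16.9% and 2.19%, so that counts over 14 genes do not set the neighbours apart. The neighbour of CPS1, LANCL1, which encodes a glutathione-binding protein, had no peak in its canonical transcript or TSS window.

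The CpG observed/expected ratio in the 1 kb around the MANE Select TSS placed the 7 promoters in separate classes. CPS1 (0.12), ARG1 (0.19) and OTC (0.31) lay in the lowest quartile of protein-coding genes, up to 0.41. NAGS (0.64) and ASL (0.71) lay in the next, and ASS1 (0.75) and SLC25A15 (0.83) in the quartile above the median of 0.72. In the lowest quartile 5.99% of genes had the TSS inside a peak, falling to 1.58%, 0.779% and 0.399% in the others. The 2 members with a TSS inside a peak were thus among the class where this was most frequent, and 2 of the 3 members of this class had it. A peak within 2.5 kb was spread otherwise, at 14.1% in the lowest quartile and 17.8%, 19.5% and 16.3% in the others.

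**Figure D4:**
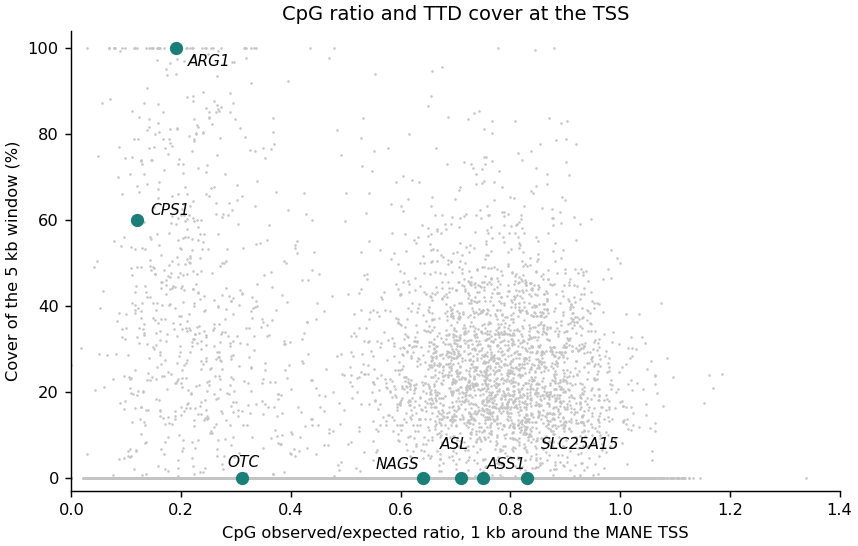
Cover of the 5 kb window at the TSS (percent, y axis) against the CpG observed/expected ratio of the 1 kb around it (x axis) for the canonical TSS of each protein-coding gene (grey points) and the urea cycle genes (green). CPS1 and ARG1 stand at 60.0% and 100% at ratios under 0.2, OTC at 0% with 0.31, and the other 4 at 0% between 0.64 and 0.83.

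Genes around the cycle (21, among them carriers of ornithine, aspartate, glutamine and urea, mitochondrial carbonic anhydrases, and enzymes of glutamate, ornithine and proline metabolism) gave a background from the same field. A peak lay in the body of 8 (38.1%), within 2.5 kb of the 5′ end of 3 (14.3%) and within 100 kb of 18 (85.7%), beside 34.2%, 16.9% and 77.9% of all protein-coding genes. With the MANE Select TSS, a peak within 2.5 kb was again found for 3 (all genes 16.9%), and 0 of the 21 had the TSS inside a peak (all genes 2.19%). The largest body cover was that of GLUL, the glutamine synthetase of perivenous hepatocytes, at 30.7% in 1 peak. GOT1, the cytosolic aspartate aminotransferase, followed with 22.3% in 3 peaks, and ALDH18A1, which makes the precursor of proline and ornithine, with 19.7% in 4 peaks. Over the GENCODE gene, CPS1 (23.3%) lay between GLUL and GOT1. Over the canonical transcript this place was taken by ARG1 (27.8%), while CPS1 stood at 4.56%, also under ALDH18A1 (19.7%), SLC25A13 (12.8%), an aspartate and glutamate carrier, and AQP9 (6.50%), a channel for urea and glycerol (SLC25A13 and AQP9 were named after their values were seen). The median cover within 100 kb was 2.31%, near the 2.00% of all genes and below the 5.53% of the 7 urea cycle genes, a difference that was not tested. Within 50 kb the medians were 2.62% for the related genes and 2.64% for the urea cycle genes, and within 250 kb they were 2.99% and 4.86%.

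**Figure D5:**
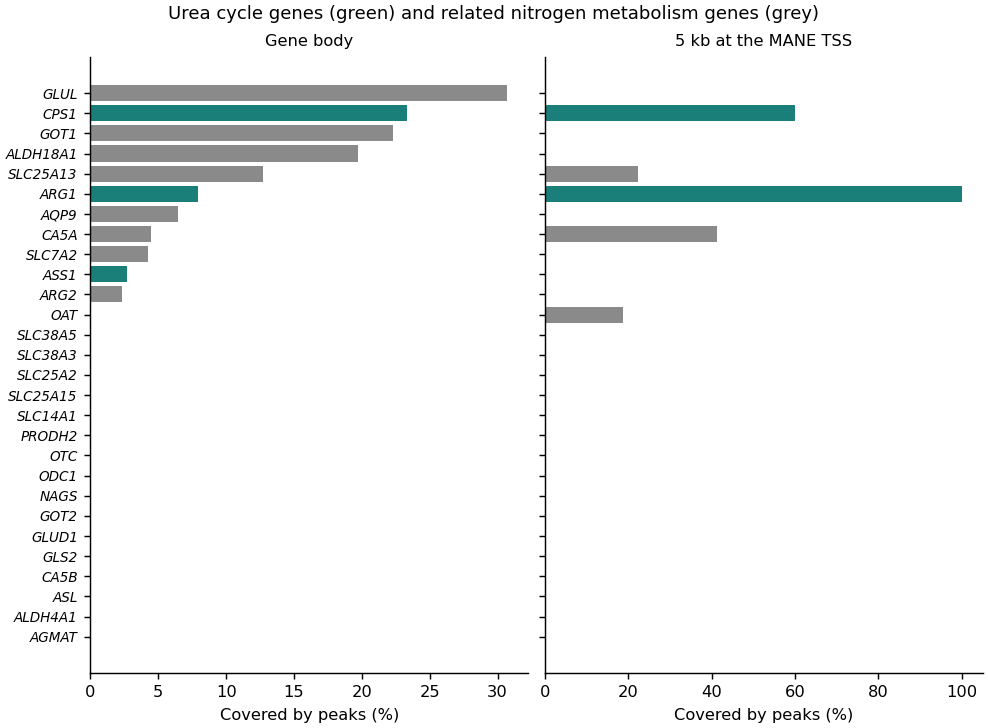
Cover by TTD peaks (percent, x axes) of the gene body and of the 5 kb window at the MANE Select TSS for the 7 urea cycle genes (green) and 21 related genes (grey), ordered by the cover of the GENCODE gene body. CPS1 lies second there, and ARG1 (100%) and CPS1 (60.0%) have the longest bars at the TSS.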

How the data were processed

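TTD CIDOP, H3K9me2 ChIP and input libraries (2 replicates each) were made from HepG2 cells. According to the methods and the submitters' processing notes, the authors trimmed reads with Trimmomatic 0.38, checked them with FastQC 0.72, mapped them to hg38 with HISAT2 2.2.1 and computed RPKM coverage in 10 bp bins with deepTools 3.3.2. They averaged both TTD replicates, used MACS2 2.1.1 with fixed cutoffs to call broad peaks on the mean, and took out blacklisted regions before a curation by hand. The deposited list gives positions and widths in bp, on a 10 bp grid, with no score, fold or p-value, and read depth is unknown from it. By the methods, the curation took out artefacts and large peaks held to be false, so width ranks hold among the peaks kept.

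Cover was computed by interval arithmetic with GENCODE release 44. The TSS was the 5′ end of the gene, with the MANE Select or Ensembl canonical transcript as the alternative. An overlap of 1 bp counted as a peak. The CpG observed/expected ratio is the number of CpGs times the length, divided by the product of the C and G counts. "Reached by" gives the share of protein-coding genes with at least that cover. No test was run, because the 1 pooled list has no replicates. The members, lists and windows were chosen with earlier results of these data known. All 7 members are named, and of the 21 related genes the 3 with the largest body cover (a TSS inside a peak also qualified, which 0 had), with SLC25A13 and AQP9 added after their values were seen. The interval arithmetic was tested on 50 sets of made-up peaks. Python 3.11.15, numpy 2.4.6 and matplotlib 3.10.9 were used. The alternatives were wider peaks, joined peaks, larger overlaps and other windows and TSSs. The signal tracks, the H3K9me2 and input libraries and expression ratios were not used here, and the upstream bases of 1 member are not reported here.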

Additional observations from a re-analysis of the deposited data

How the results depend on the processing

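With the canonical TSS, the number of members with a peak within 2.5 kb moved from 0 to 2, and that with the TSS inside a peak from 0 to 2. The TSS of any protein-coding transcript, an alternative chosen after seeing the data, gave 2 and 2 as well. A window of 5 kb on each side gave 1 member, beside 22.1% of protein-coding genes. The median cover within 100 kb, 5.53%, was 4.12% when narrow peaks (under the median width) were left out, 2.64% with 50 kb and 4.86% with 250 kb on each side. Counts of members with a peak in the body (2 to 3) and within 100 kb (6 to 7) stayed within 1.5 times the value reported under each alternative run on them. Without the narrow peaks, ASS1 had no peak left in its body or within 100 kb. Of 91 recomputed covers of single members, 63 stayed within the 95% Wilson interval of the reported cover (taken over steps of 10 bp, so covering counting error only) and 28 moved outside it. Most of the 63 were covers of 0 that stayed 0. Leaving out narrow peaks or shrinking a window cannot change a 0, so the 63 do not measure stability. Leaving out a replicate was not possible with 1 pooled list, and no paired analysis was possible because no result comes from a test. The peaks carry no strength, so weak and strong binding at these genes cannot be told apart.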
